A study of Mus musculus with 17 samples.

Results

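The genes described here are 9 markers of Cajal-Retzius neurons, measured in cells sorted from the embryonic mouse cortex: Reln, Lhx1, Lhx5, Ebf2, Ebf3, Trp73, Ndnf, Calb2 and Cxcr4. They were taken by symbol, with every probe set of each, which gave 17 of the 45037 probe sets on the array and 9 of the 18193 genes with a probe set of their own. The genes were chosen with earlier results of these arrays in view, above all their lower signal in GFP-high than in GFP-low Prominin-selected cells at embryonic day 14 (E14). That contrast is therefore given as a description, with no test. All 17 samples came from hGFAP-eGFP mice, which carry enhanced green fluorescent protein (GFP) under a human GFAP promoter, and each was sorted by fluorescence from cortex and hybridised to 1 Affymetrix array. The promoter is active in radial glia and GFP protein can persist in their progeny, so a GFP gate is not a gate on a single cell type. The groups were GFP-positive Prominin-selected cells at embryonic day 18 (E18, n = 4), E14 GFP-high Prominin-selected cells (n = 4), E14 GFP-low Prominin-selected cells (n = 3), E14 GFP-high cells with no Prominin gate in their labels (called ungated, n = 3) and E14 GFP-low ungated cells (n = 3). Prominin is a membrane protein of the apical surface of neural progenitors. No label names a litter or embryo, so the p-values take in only the variation among these arrays, and that variation may be technical.

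Cajal-Retzius cells are among the first neurons of the cortex. They settle in the marginal zone under the pia, arise mainly at the borders of the pallium (the cortical hem, the septum and the pallial-subpallial boundary) and secrete reelin, which binds the receptors Vldlr and Lrp8 on migrating neurons, leads to phosphorylation of the adaptor Dab1 and orders the cortical layers. Reln, Calb2 and Cxcr4 are also expressed by cortical interneurons, and Cxcr4 by intermediate progenitors, so none of these 3 marks Cajal-Retzius cells alone. The remaining genes are not taken as exclusive to Cajal-Retzius cells either. In sorted bulk samples, fewer cells of a type and less RNA per cell cannot be told apart.

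On the GRCm38.p6 assembly, Reln lies at chr5:21884454-22344705, Lhx5 at chr5:120431886-120441457, Lhx1 at chr11:84517975-84525534 and Trp73 at chr4:154056249-154139875. Ebf2 lies at chr14:67233292-67430952, Ebf3 at chr7:137193671-137322805, Ndnf at chr6:65671611-65712323, Calb2 at chr8:110142526-110168212 and Cxcr4 at chr1:128588199-128592299. Which exon or untranslated region each probe set reads is not given in the sources used here.

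Promoter sequence is shown for Reln, Ebf3 and Lhx1 because Reln is the gene the results turn on most, Ebf3 encodes a factor of the same list whose own motif can be looked for, and the probe sets of Lhx1 had the highest correlation with each other. Each line holds the 250 bases before the annotated start, 5′ to 3′ on the gene's strand, from RefSeq (GRCm38.p6). The windows are chr5:22344706-22344955 (minus strand) for Reln, chr7:137314446-137314695 (minus strand, inside the annotated span of the gene) for Ebf3 and chr11:84525535-84525784 (minus strand) for Lhx1. Capitals mark CCCNNGGG, the core of the palindrome bound by EBF factors, which reads the same on both strands.
Reln: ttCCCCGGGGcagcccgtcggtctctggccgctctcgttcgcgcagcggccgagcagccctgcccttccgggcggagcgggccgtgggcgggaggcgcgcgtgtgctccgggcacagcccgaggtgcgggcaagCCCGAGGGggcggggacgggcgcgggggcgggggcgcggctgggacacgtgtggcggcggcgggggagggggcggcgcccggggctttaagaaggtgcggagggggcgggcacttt
Ebf3: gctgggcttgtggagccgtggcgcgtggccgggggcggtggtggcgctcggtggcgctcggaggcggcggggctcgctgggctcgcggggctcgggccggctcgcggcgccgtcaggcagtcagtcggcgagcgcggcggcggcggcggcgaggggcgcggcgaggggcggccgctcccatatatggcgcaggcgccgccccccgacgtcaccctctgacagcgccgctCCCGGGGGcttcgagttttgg
Lhx1: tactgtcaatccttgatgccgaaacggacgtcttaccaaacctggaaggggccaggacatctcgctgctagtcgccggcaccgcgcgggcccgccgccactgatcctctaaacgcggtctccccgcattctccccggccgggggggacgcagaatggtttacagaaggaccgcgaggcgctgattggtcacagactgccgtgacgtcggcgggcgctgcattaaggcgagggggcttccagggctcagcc
The Reln window held the core 2 times and the Ebf3 window 1 time, and the Lhx1 window held 0. The core occurs in 11.8% of 32851 promoter windows of this length, and the Reln and Ebf3 windows are rich in G and C (80% of bases in each, against a median of 52.4% over all windows). The same core with a T before it and an A after it, present in 0.779% of windows, and TAATTA, a core read by LIM homeodomain factors such as Lhx1 and present in 4.84%, were in no window of these genes. Of the 9 genes 5 had an entry, with 6 windows in all, and the windows of Cxcr4 and Trp73 held none of these motifs. Lhx5, Ndnf, Ebf2 and Calb2 are only named here.

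Levels are log2 of the intensity plus a pseudocount of 16, after quantile normalization of the 17 arrays, and a gene is represented by its probe set with the highest mean. On this scale the median gene lay at 6.29. To gauge background, 19 genes not expected in cortex (such as those of milk, sperm and digestive proteins) were read the same way. Their levels on single arrays had a median of 4.69 and reached 6.68, and their highest group mean, 6.15, is called the background level here. It is approximate, since probe sets differ in affinity, and a fold is given only where both group means exceed it. A log2 difference against a group below it depends on the pseudocount in its size and is no bound. The E14 Prominin-selected arrays stood apart in control signals. The 18S ribosomal RNA signal was 302 to 583 at E18, 2446 to 5192 in GFP-high and 2292 to 2628 in GFP-low Prominin-selected cells, and 179 to 427 in GFP-high and 175 to 627 in GFP-low ungated cells. The 3′ minus 5′ log2 difference of Gapdh, a common measure of 3′ bias, was −0.21 to 1.00 at E18, 0.54 to 1.71 in GFP-high and 0.92 to 2.30 in GFP-low Prominin-selected cells, and −0.21 to −0.19 in GFP-high and −0.25 to 0.18 in GFP-low ungated cells. The dap control transcript read 1054 to 2787 at E18, 4.53 to 4085 in GFP-high and 3.85 to 18.2 in GFP-low Prominin-selected cells, and 565 to 1894 on the ungated arrays. The MessageAmp II labelling kit was used for all 11 Prominin-selected arrays and for GFP-high ungated replicate 1, and the GeneChip IVT kit for the other 5. Of the 9 genes, 3 exceeded the background level at E18, 3 in E14 GFP-high Prominin-selected cells, 8 in E14 GFP-low Prominin-selected cells, 3 in E14 GFP-high ungated cells and 1 in E14 GFP-low ungated cells.

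Across the 5 groups, 8 of the 9 genes had their highest mean in E14 GFP-low Prominin-selected cells, and Cxcr4 had its highest mean at E18. For 6 of these 8 genes (Reln, Lhx1, Lhx5, Ebf3, Trp73 and Ndnf) no array of the next group reached the lowest GFP-low Prominin-selected array. Calb2 overlapped with E18 cells, and Ebf2 with E14 GFP-high Prominin-selected cells. The summed intensity of the 9 genes was 1106 to 1977 at E18, 695 to 898 in E14 GFP-high Prominin-selected cells, 3733 to 5281 in E14 GFP-low Prominin-selected cells, 314 to 334 in E14 GFP-high ungated cells and 441 to 668 in E14 GFP-low ungated cells, and Reln supplied most of it in every group but E14 GFP-high ungated cells. For 5 genes the lowest mean was in E14 GFP-low ungated cells. E14 GFP-low Prominin-selected cells are part of the contrast the genes were chosen on. No share over all genes is given for these counts, and nothing is read from them.

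**Figure D1:**
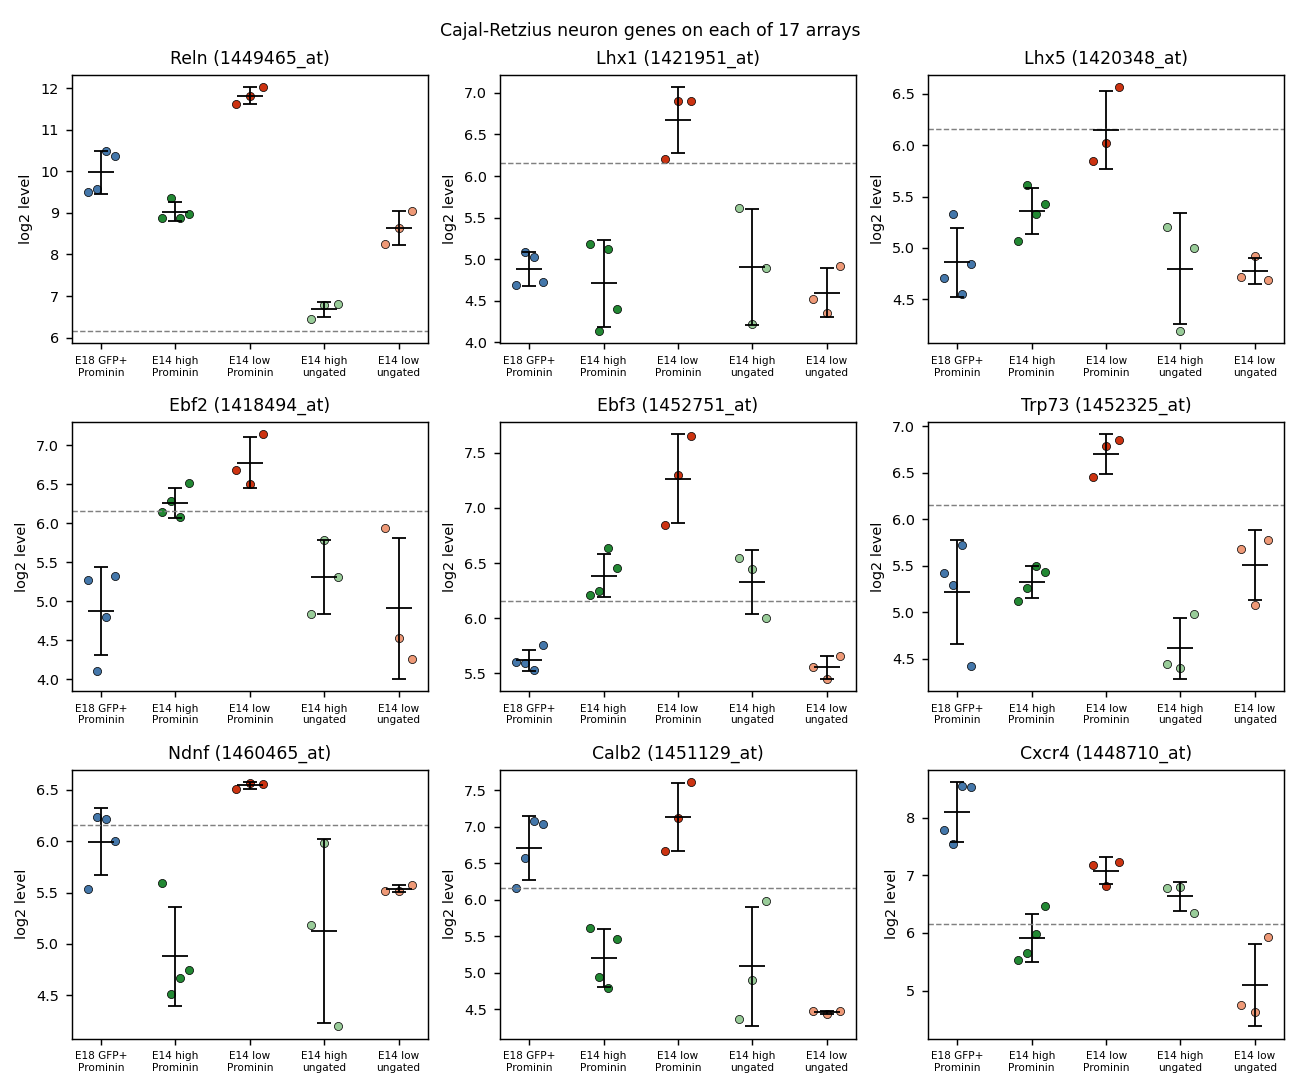
Log2 level of the brightest probe set of each of the 9 genes on each of 17 arrays, by group, with 1 panel a gene. Points are arrays, bars are the group mean and SD, and the dashed line is the background level of 6.15. The 3 arrays of E14 GFP-low Prominin-selected cells are highest in every panel but those of Cxcr4, which is highest at E18, and of Calb2 and Ebf2, where they overlap with another group.

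The contrast of GFP-high with GFP-low Prominin-selected cells at E14 is the one the genes were chosen on. There 9 of 9 genes had a negative difference, and 8 were lower in GFP-high cells with no overlap between groups, with 0 higher, where 7.51% of all genes were lower and 5.72% higher without overlap. Ebf2 was the gene that overlapped. The median difference of the 9 was −1.37, and that of all genes −0.01. Nothing is read from these counts, since they follow from the choice.

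The contrast of GFP-high with GFP-low ungated cells shares no array with it, although its results were also known when the genes were chosen. Only 2 of the 9 passed an adjusted p under 0.05: Reln fell in GFP-high cells and Cxcr4 rose. That is 1 of 9 lower, where 6.36% of all genes were lower, and 1 of 9 higher, where 5.95% were higher, and the median difference was 0.31, against −0.01 over all genes. Lhx1, Lhx5, Ebf2, Trp73, Ndnf and Calb2 lay below the background level on all 6 ungated arrays. The call of Cxcr4 was lost in 7 of 13 alternatives, among them without any 1 of the 3 GFP-high arrays or without GFP-low replicate 1 or 2 (adjusted p 0.00477 to 0.143 over all 13). The call of Reln was kept in all 13.

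The age contrasts set E18 cells against either E14 Prominin-selected group, with the E18 arrays in common. Their E14 arrays are those the genes were chosen on, so the values of the 9 genes are given as a description, with no p-value, and nothing is read from the counts. Against E14 GFP-high cells, 4 of 9 were past the threshold of the fit and higher at E18 (Reln, Ndnf, Calb2 and Cxcr4), where 9.39% of all genes were higher, and 2 of 9 lower (Ebf2 and Ebf3), where 15.2% were lower. Against E14 GFP-low cells, 1 of 9 was past it and higher (Cxcr4), where 5.63% of all genes were higher, and 6 of 9 lower (all but Ndnf and Calb2), where 10.6% were lower. The median difference was 0.17 against GFP-high cells (−0.07 over all genes) and −1.48 against GFP-low cells (−0.10 over all genes). The 18S signal, and in GFP-low cells dap, separated these E14 arrays from the E18 arrays without overlap, and their part in the differences was not tested.

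The gate contrasts set Prominin-selected against ungated cells at E14, and their gated arrays are again those the genes were chosen on, so the differences of the 9 genes are described with no p-value and nothing is read from the counts. In GFP-high cells 1 of 9 was past the threshold of the fit and higher with the gate (Reln), where 10.8% of all genes were higher. By limma 0 of 9 were lower, where 8.13% were lower. At an unadjusted p under 0.05, 4 of 9 were higher and 1 of 9 lower. In GFP-low cells 8 of 9 were past the threshold of the fit and higher (all but Ndnf), where 9.49% of all genes were higher. There 0 of 9 were lower, where 7.49% were lower. At an unadjusted p under 0.05, 9 of 9 were higher and 0 lower. The median difference of the 9 was 0.12 in GFP-high cells and 1.87 in GFP-low cells, against 0.02 over all genes in either. In GFP-low cells every gated array was labelled with one kit and every ungated array with the other, so kit and gate cannot be told apart. The 18S signal and the Gapdh difference were also higher on every gated than on every ungated array, in GFP-high as in GFP-low cells, dap was lower on every gated array in GFP-low cells, and their part cannot be told apart from the gate. In GFP-high cells, against the 1 ungated array of the same kit, Reln differed by 2.57, a comparison that leaves the 18S and Gapdh separation in place.

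**Figure D2:**
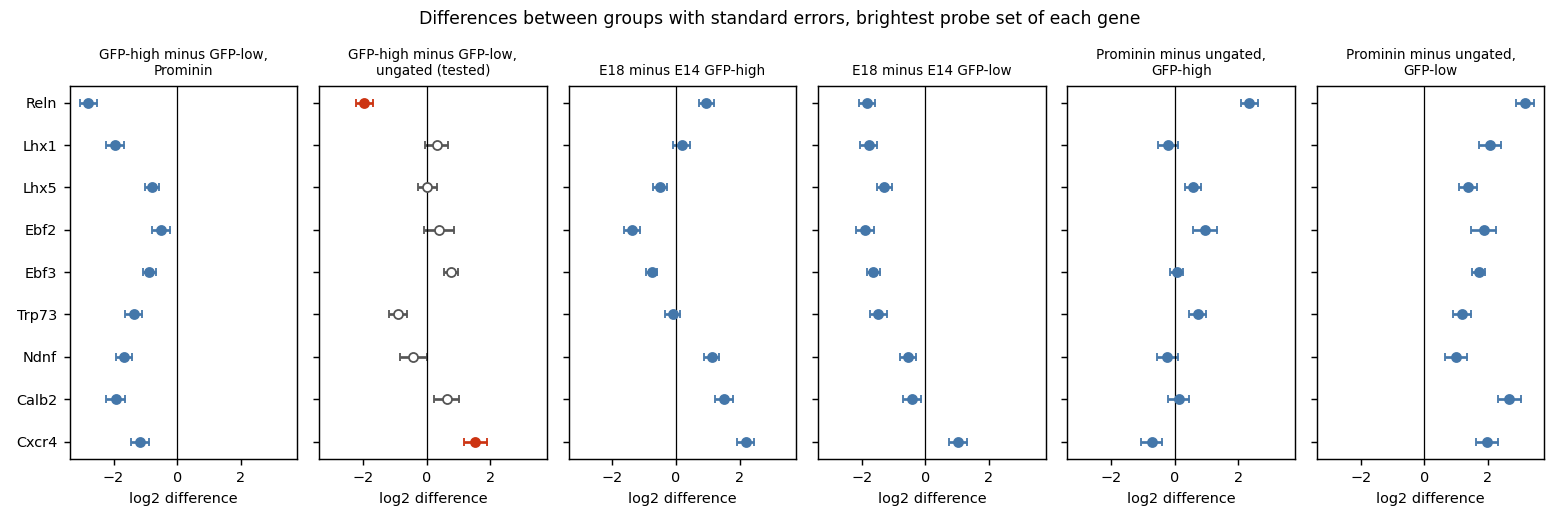
Difference on the log2 scale (x axis) of the brightest probe set of each of the 9 genes (y axis) in 6 contrasts, 1 panel each, with bars for the standard error of the fit. In the second panel red points passed an adjusted p under 0.05 and open points did not, and blue points in the other panels are descriptions, because those panels hold arrays the genes were chosen on. Reln, Trp73 and Ndnf lie left of 0 in both GFP panels, and Lhx1, Lhx5, Ebf2, Ebf3, Calb2 and Cxcr4 lie left of 0 in the first and right of it in the second, where only Reln and Cxcr4 passed.

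Reln encodes the secreted ligand of the pathway. Its intensity was 699, 709, 1189 and 1271 at E18, 460, 466, 501 and 637 in E14 GFP-high Prominin-selected cells, and 3104, 3595 and 4345 in E14 GFP-low Prominin-selected cells. On ungated arrays the intensity was 67.5, 91.3 and 93.2 in GFP-high cells and 292, 369 and 535 in GFP-low cells. All 5 groups exceeded the background level, and the order was E14 GFP-low Prominin-selected, E18, E14 GFP-high Prominin-selected, E14 GFP-low ungated and E14 GFP-high ungated, where only E14 GFP-high Prominin-selected and GFP-low ungated cells overlapped. On the log2 scale these groups averaged 9.98 ± 0.52 at E18, 9.02 ± 0.23 in GFP-high and 11.82 ± 0.21 in GFP-low Prominin-selected cells, and 6.68 ± 0.19 in GFP-high and 8.64 ± 0.41 in GFP-low ungated cells (SD). With the gate, GFP-high cells were 6.94-fold below GFP-low cells (−2.80 ± 0.26, standard error, no test). Without it, Reln was 3.91-fold lower in GFP-high cells (−1.97 ± 0.26, adjusted p = 0.00455), and 3 of 3 GFP-high arrays lay below 3 of 3 GFP-low arrays. At E18 Reln was 1.94-fold higher than in E14 GFP-high cells (0.95 ± 0.24) and 3.58-fold lower than in E14 GFP-low cells (−1.84 ± 0.26), so E18 cells lay between the E14 groups with no overlap with either. Prominin-selected cells had 5.09-fold more Reln than ungated cells among GFP-high cells (2.35 ± 0.26) and 9.04-fold more among GFP-low cells (3.18 ± 0.28). These folds are on the log2 scale after the pseudocount, which makes those of dim groups smaller than the ratio of intensities.

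Lhx1 and Lhx5 encode LIM homeodomain transcription factors of early-born neurons. Lhx1 was at 4.69, 4.73, 5.03 and 5.08 at E18, at 4.13, 4.40, 5.12 and 5.18 in E14 GFP-high Prominin-selected cells and at 6.21, 6.90 and 6.91 in E14 GFP-low Prominin-selected cells. Among ungated arrays Lhx1 was at 4.22, 4.90 and 5.61 in GFP-high cells and at 4.36, 4.52 and 4.92 in GFP-low cells. The GFP-low Prominin-selected mean was the only one above the background level, and the other 4 groups overlapped with each other. Its lowest array, at 6.21, lay under the 6.68 that genes not expected in cortex reached on single arrays. Lhx1 was lower at E18 than in E14 GFP-low cells (−1.79 ± 0.28, and −2.61 to −0.96 over the alternatives run) and higher with the gate in GFP-low cells (2.07 ± 0.34, and 1.06 to 3.33 over the alternatives), against a group below background in both cases. In ungated cells its GFP difference was 0.31 ± 0.37 (adjusted p = 0.711).

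Lhx5 was at 4.55, 4.71, 4.84 and 5.33 at E18, at 5.07, 5.33, 5.43 and 5.61 in E14 GFP-high Prominin-selected cells and at 5.85, 6.03 and 6.57 in E14 GFP-low Prominin-selected cells. Its ungated levels were 4.19, 5.004 and 5.21 in GFP-high cells and 4.69, 4.72 and 4.92 in GFP-low cells. No group mean of Lhx5 exceeded the background level, and only 1 GFP-low Prominin-selected array did, so its differences concern a signal close to background. It was lower at E18 than in E14 GFP-low cells (−1.29 ± 0.23, and −2.06 to −0.63 over the alternatives) and higher with the gate in GFP-low cells (1.37 ± 0.27, and 0.66 to 2.18 over the alternatives), while its ungated GFP difference was 0.02 ± 0.30 (adjusted p = 0.980).

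Ebf2 and Ebf3 encode early B-cell factors, helix-loop-helix proteins of differentiating neurons. Ebf2 was at 4.11, 4.80, 5.27 and 5.33 at E18, at 6.09, 6.15, 6.28 and 6.51 in E14 GFP-high Prominin-selected cells and at 6.51, 6.68 and 7.14 in E14 GFP-low Prominin-selected cells. Among ungated arrays Ebf2 was at 4.84, 5.32 and 5.78 in GFP-high cells and at 4.26, 4.52 and 5.95 in GFP-low cells. Both E14 Prominin-selected groups lay above all E18 arrays, and they differed from each other by 1.43-fold with overlap (−0.52 ± 0.28, no test). At E18 Ebf2 was lower than in E14 GFP-high cells (−1.38 ± 0.26, and −2.44 to −0.67 over the alternatives) and than in E14 GFP-low cells (−1.90 ± 0.28, and −3.06 to −1.01). With the gate it was higher in GFP-low cells (1.87 ± 0.39, and 0.97 to 3.04), and in GFP-high cells the difference was 0.95 ± 0.36. The E18 and ungated means are below background.

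Ebf3 was at 5.53, 5.59, 5.60 and 5.76 at E18, at 6.21, 6.25, 6.46 and 6.63 in E14 GFP-high Prominin-selected cells and at 6.84, 7.30 and 7.65 in E14 GFP-low Prominin-selected cells. Without the gate, Ebf3 was at 6.003, 6.44 and 6.55 in GFP-high cells and at 5.45, 5.56 and 5.66 in GFP-low cells. Among Prominin-selected cells, GFP-high cells lay below GFP-low cells (1.84-fold, −0.88 ± 0.20, no test), and without the gate GFP-high cells lay above GFP-low cells on every array (0.77 ± 0.22, adjusted p = 0.0845). That ungated difference passed the threshold in 3 of 13 alternatives (adjusted p 0.0196 to 0.243 over all 13), and the difference between both contrasts was not tested. Ebf3 was lower at E18 than in E14 GFP-high cells (−0.77 ± 0.18) and E14 GFP-low cells (−1.64 ± 0.20, and −2.02 to −1.06 over the alternatives), with the E18 mean below background. With the gate it was higher in GFP-low cells (1.71 ± 0.22, and 1.09 to 2.12), whose ungated mean is below background, and in GFP-high cells the difference was 0.06 ± 0.20.

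Trp73 encodes p73, a p53-family transcription factor found in Cajal-Retzius cells that come from the hem. It was at 4.42, 5.30, 5.42 and 5.73 at E18, at 5.12, 5.26, 5.43 and 5.50 in E14 GFP-high Prominin-selected cells and at 6.45, 6.79 and 6.85 in E14 GFP-low Prominin-selected cells. Among ungated arrays Trp73 was at 4.41, 4.44 and 4.99 in GFP-high cells and at 5.08, 5.68 and 5.78 in GFP-low cells. As with Lhx1, only the E14 GFP-low Prominin-selected mean exceeded the background level, and the lowest array of that group (6.45) lay under 6.68. Trp73 was lower at E18 than in E14 GFP-low cells (−1.48 ± 0.26, and −2.15 to −0.82 over the alternatives) and higher with the gate in GFP-low cells (1.19 ± 0.29, and 0.69 to 1.57), against groups below background. In ungated cells it was below in 3 of 3 GFP-high arrays, by −0.90 ± 0.28, which missed the threshold (adjusted p = 0.102).

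Ndnf encodes a secreted neurotrophic factor. Ndnf was at 5.53, 5.998, 6.22 and 6.24 at E18, at 4.51, 4.67, 4.74 and 5.59 in E14 GFP-high Prominin-selected cells and at 6.51, 6.56 and 6.57 in E14 GFP-low Prominin-selected cells. The ungated arrays read 4.20, 5.18 and 5.99 in GFP-high cells and 5.52, 5.52 and 5.58 in GFP-low cells. Its mean was above background only in E14 GFP-low Prominin-selected cells, where every array lay under the 6.68 that genes not expected in cortex reached on single arrays. Ndnf was higher at E18 than in E14 GFP-high cells, with an overlap at 1 array and both means below background (1.12 ± 0.24). Against E14 GFP-low cells the difference at E18 was −0.55 ± 0.26, and with the gate in GFP-low cells it was 1.01 ± 0.35, where groups did not overlap.

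Calb2 encodes calretinin, a calcium-binding protein of Cajal-Retzius cells and of some interneurons. It was at 6.16, 6.57, 7.04 and 7.08 at E18, at 4.79, 4.94, 5.46 and 5.62 in E14 GFP-high Prominin-selected cells and at 6.67, 7.11 and 7.62 in E14 GFP-low Prominin-selected cells. Without the gate, Calb2 was at 4.37, 4.90 and 5.98 in GFP-high cells and at 4.43, 4.47 and 4.47 in GFP-low cells. Its levels at E18 and in E14 GFP-low Prominin-selected cells thus overlapped, with a difference of 1.34-fold (−0.42 ± 0.29). Calb2 was higher at E18 than in E14 GFP-high cells (1.51 ± 0.27, and 0.85 to 2.10 over the alternatives) and higher with the gate in GFP-low cells (2.68 ± 0.36, and 1.44 to 4.20 over the alternatives), against groups below background. Its ungated GFP difference was 0.63 ± 0.39 (adjusted p = 0.433).

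Cxcr4 encodes the receptor for the chemokine Cxcl12, which the meninges secrete and which guides Cajal-Retzius cells along the cortical surface. It was at 7.54, 7.78, 8.53 and 8.55 at E18, at 5.53, 5.66, 5.99 and 6.47 in E14 GFP-high Prominin-selected cells and at 6.81, 7.19 and 7.24 in E14 GFP-low Prominin-selected cells. The ungated arrays had Cxcr4 at 6.34, 6.77 and 6.79 in GFP-high cells and at 4.62, 4.75 and 5.92 in GFP-low cells. Cxcr4 was highest at E18, and its GFP contrast ran in opposite directions: GFP-high cells lay below GFP-low cells with the gate (−1.17 ± 0.29, no test) and above them without it (1.54 ± 0.37, adjusted p = 0.0448, and 0.82 to 2.29 over the alternatives, against a GFP-low mean below background), a difference between contrasts that was not tested. At E18 it was higher than in E14 GFP-high cells (2.19 ± 0.27, against a mean below background) and 2.03-fold higher than in E14 GFP-low cells (1.02 ± 0.29, and 0.59 to 1.21 over the alternatives). With the gate it was higher in GFP-low cells (1.98 ± 0.35, and 1.13 to 2.80), whose ungated mean is below background.

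Probe sets of the same gene did not always agree. For 6 of the 9 genes there were 8 further probe sets, and Lhx5, Calb2 and Cxcr4 had 1 probe set each. Of the 8, 5 had their highest mean in E14 GFP-low Prominin-selected cells, and 2 exceeded the background level, only there. That group is part of the contrast the genes were chosen on, so nothing is read from these 2 counts. The second probe set of Lhx1 followed the first closely: it averaged 4.55 ± 0.40 at E18, 4.53 ± 0.39 in E14 GFP-high Prominin-selected cells and 6.78 ± 0.33 in E14 GFP-low Prominin-selected cells, and 4.28 ± 0.17 in GFP-high and 4.23 ± 0.11 in GFP-low ungated cells. Its correlation with the first was 0.826 over the 17 arrays, which share groups, with the same sign in 5 of 6 contrasts. It was lower at E18 than in E14 GFP-low cells (−2.24 ± 0.27) and higher with the gate in GFP-low cells (2.55 ± 0.26), as the first was.

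The second probe set of Ebf3 (1428349_s_at) was at 4.98 ± 0.44 at E18, 5.82 ± 0.50 in E14 GFP-high Prominin-selected cells and 6.54 ± 0.21 in E14 GFP-low Prominin-selected cells, and at 5.72 ± 0.66 in GFP-high and 4.75 ± 0.73 in GFP-low ungated cells (r = 0.778 with the brightest, same sign in 6 of 6 contrasts). It was lower at E18 than in E14 GFP-low cells (−1.56 ± 0.29) and higher with the gate in GFP-low cells (1.79 ± 0.39), as the brightest did. The third, 1460666_a_at, was highest in E14 GFP-high ungated cells (6.06 ± 0.21, against 5.17 ± 0.47 in GFP-low ungated cells). Like the brightest, it was higher in GFP-high ungated cells with no overlap and missed the threshold (0.89 ± 0.28, adjusted p = 0.110). For Ebf2, 1449102_at followed the brightest probe set (r = 0.795, same sign in 6 of 6), and was lower at E18 than in E14 GFP-low cells (−1.02 ± 0.22). The probe set 1449101_at did so less (r = 0.252, 3 of 6). Both, like the third of Ebf3, had no group mean above the background level, so the values of Ebf2 rest on its brightest probe set.

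The second probe set of Reln, 1458020_at, lay below the background level on every array, between 4.06 and 5.96, and correlated with the brightest at r = 0.393, with the same sign in 4 of 6 contrasts. In ungated cells it was lower in GFP-high cells, as the brightest was (−1.26 ± 0.28, adjusted p = 0.0324), but this call was lost in 8 of 11 alternatives, among them without any 1 of the 3 GFP-high arrays or without GFP-low replicate 1 or 2 (adjusted p 0.0237 to 0.113 over all 11). The other probe sets of Trp73 (r = 0.437, 4 of 6) and Ndnf (r = −0.0762, 2 of 6) were also below the background level in every group, so the values of these genes rest on 1 probe set.

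**Figure D3:**
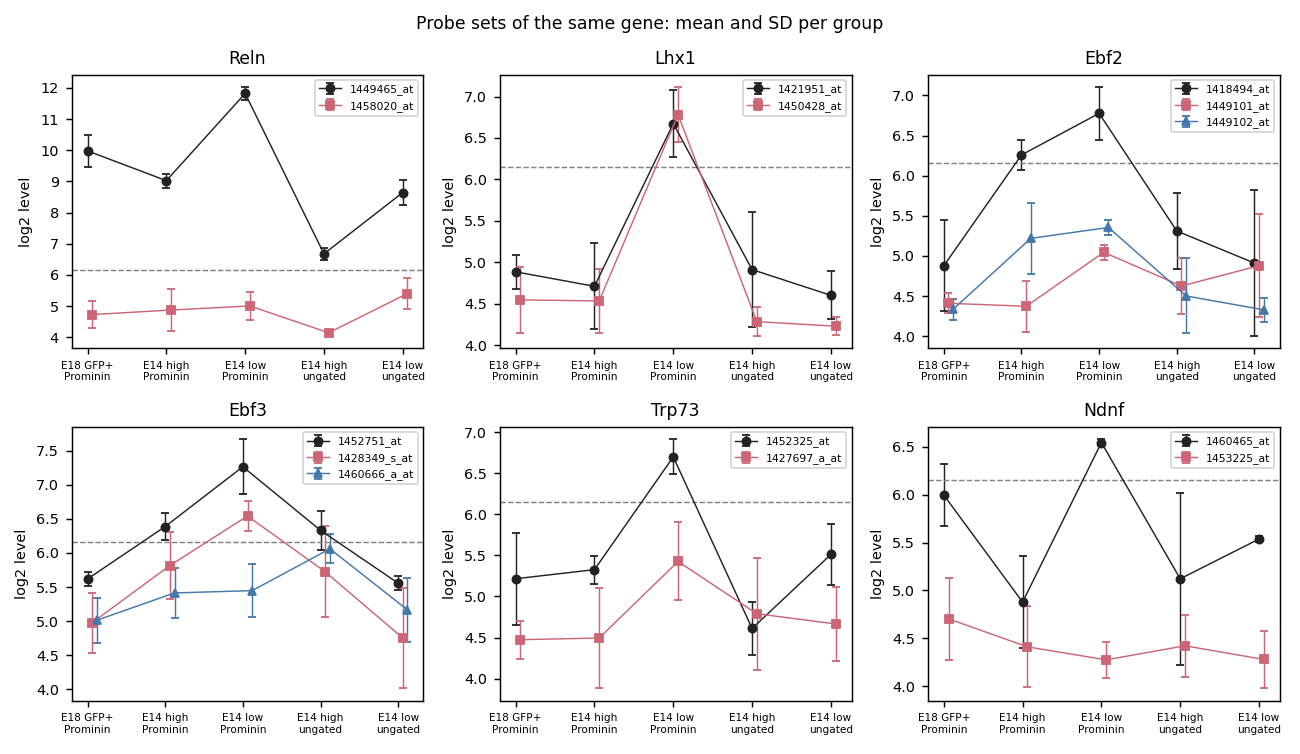
Mean log2 level with SD in the 5 groups for every probe set of the 6 genes with more than 1, with the background level of 6.15 dashed and lines joining groups only to guide the eye. Both probe sets of Lhx1 are highest in E14 GFP-low Prominin-selected cells, while the second probe sets of Reln and Ndnf stay below the dashed line in every group.

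Genes whose levels followed Reln most closely over the 17 arrays were sought among 10178 genes whose highest group mean lay above the median of all genes. The 6 highest correlations were those of Camsap2, a microtubule minus-end protein gene (r = 0.926, rho = 0.949), Sulf2, an extracellular sulfatase gene (r = 0.915, rho = 0.917), Bloc1s2 (r = 0.903), Ackr3, the scavenging receptor gene for Cxcl12 (r = 0.895), Gpam (r = 0.894) and Exoc5 (r = 0.894). The other Cajal-Retzius genes ranked lower: Trp73 was 182nd (r = 0.783), Calb2 275th (0.755), Ndnf 755th (0.656) and Lhx1 966th (0.620). Lhx5 (r = 0.624) was not ranked, since its highest group mean lay below that median. Ebf2, Cxcr4 and Ebf3 followed at r = 0.404, 0.403 and 0.378. These correlations are descriptions over arrays that share groups, labelling and sort. Lhx1, Ebf2, Trp73 and Ndnf passed the filter only through E14 GFP-low Prominin-selected cells, where Reln was also highest. The genes were chosen on a contrast that holds this group, so nothing is read from their correlations or ranks.

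Of the 11 genes of the reelin pathway, receptors and adaptors included, 10 or 11 exceeded the background level in each group. In ungated cells 3 of 11 fell in GFP-high cells, where 6.36% of all genes fell. Dab1, the adaptor, averaged 8.18 ± 0.27 in GFP-high and 10.80 ± 0.29 in GFP-low ungated cells (−2.62 ± 0.25, adjusted p = 0.00147). Vldlr, a receptor, averaged 7.13 ± 0.33 in GFP-high and 9.05 ± 0.11 in GFP-low ungated cells (−1.93 ± 0.23, adjusted p = 0.00321), and the kinase gene Fyn also fell (−0.86 ± 0.19, adjusted p = 0.0343). Against E14 GFP-high cells 3 of 11 rose at E18 (Dab1, Vldlr and the receptor gene Lrp8), where 9.39% of all genes rose. In that contrast 2 of 11 fell (Src and Crkl), where 15.2% of all genes fell. Against E14 GFP-low cells 1 of 11 rose (Lrp8) and 1 of 11 fell (Src), where 5.63% of all genes rose and 10.6% fell. With the gate, 1 of 11 rose and 2 of 11 fell in GFP-high cells, where 10.8% of all genes rose and 8.13% fell. In GFP-low cells 4 of 11 fell with the gate, where 7.49% of all genes fell. Nothing is read from counts close to these shares. The median ungated difference of all 11 was −0.26, against −0.01 for all genes on the array. Of the 2 Cxcl12 pathway genes, Cxcl12 was lower at E18 than in E14 GFP-high cells (−1.84 ± 0.15) and E14 GFP-low cells (−1.52 ± 0.17). The level of its receptor gene Cxcr4 was higher at E18 in both contrasts. Ackr3 was lower in GFP-high ungated cells (−1.82 ± 0.37, adjusted p = 0.0251).

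A further 11 genes of Cajal-Retzius cells or their birthplace were read beside the 9. They, and the genes of the hem and other borders below, were also chosen with earlier results of these arrays known. Their contrasts with E14 Prominin-selected arrays are therefore described with no p-value and give no independent support. With the gate 4 of 11 rose and 1 of 11 fell in GFP-low cells, where 9.49% of all genes rose and 7.49% fell. In GFP-high cells 5 of 11 rose with the gate, where 10.8% of all genes rose. Cacna2d2, a calcium channel subunit gene, was at 7.75 ± 0.17 in GFP-low Prominin-selected cells and at 5.12 ± 0.85 in GFP-low ungated cells (SD), the second below background. Nhlh2, a helix-loop-helix factor gene, was higher with the gate by 1.68 ± 0.27. Both fell at E18 against E14 GFP-low cells, to means below background. In that contrast 1 of 11 rose (Clstn2, a synaptic adhesion gene) and 6 fell, where 5.63% of all genes rose and 10.6% fell. Tbr1, a factor of early-born glutamatergic neurons, was the gene that fell with the gate (−1.55 ± 0.27), and in ungated cells it was lower in GFP-high cells (−2.35 ± 0.25, adjusted p = 0.00218). Clstn2 was the other gene of the 11 that fell in GFP-high ungated cells, where 6.36% of all genes fell. It was at 5.44 ± 0.57 there, below background, against 9.59 ± 0.41 in GFP-low ungated cells (SD, adjusted p = 0.00122). At E18 Clstn2 was at 10.67 ± 0.20 (SD), above E14 GFP-low cells (1.83 ± 0.17, standard error) and E14 GFP-high cells (3.37 ± 0.16, standard error). In the contrast of E18 with E14 GFP-high cells, 1 of 11 rose (Clstn2) and 5 fell, where 9.39% of all genes rose and 15.2% fell. Genes of the hem and other borders were mostly at background: 0 to 2 of 14 exceeded it in each group. Rspo3, a gene of a secreted Wnt enhancer, exceeded it in 4 of the 5 groups. It was lower in GFP-high ungated cells, at 5.04 ± 0.46 and so below background, than in GFP-low ungated cells, at 9.04 ± 0.12 (SD, adjusted p = 0.00119). Unlike the 9 genes, Rspo3 was lower with the gate in GFP-low cells, at 8.29 ± 0.23 (SD), and its highest mean was in GFP-low ungated cells. At E18 it was lower than in E14 GFP-low Prominin-selected cells (−1.09 ± 0.18, standard error).

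Markers of other cell types moved with these genes in part. Of 9 interneuron genes, 8 rose at E18 in each age contrast, where 9.39% (against GFP-high cells) and 5.63% (against GFP-low cells) of all genes rose. The summed intensity of the 9 was 3262 to 3594 at E18, 379 to 738 in E14 GFP-high Prominin-selected cells, 580 to 934 in E14 GFP-low Prominin-selected cells, 88.0 to 176 in GFP-high ungated cells and 241 to 291 in GFP-low ungated cells. Reln, Ndnf, Calb2 and Cxcr4 were higher when E18 was set against E14 GFP-high cells, and the part of the interneuron signal in that was not tested. Of 9 postmitotic neuron genes, all 9 fell in GFP-high ungated cells, where 6.36% of all genes fell. With the gate 5 of 9 rose in GFP-high cells (10.8% of all genes) and 6 of 9 fell in GFP-low cells (7.49% of all genes). In GFP-low cells all 9 Cajal-Retzius genes had a positive difference with the gate and 8 were past the threshold, counts from which nothing is read. Genes of other lists also rose there, where 9.49% of all genes rose: 5 of 9 interneuron genes, 3 of 3 intermediate progenitor genes and 4 of 9 radial glia genes. Among these was Gad1 (7.09 ± 0.43 with the gate and 5.62 ± 0.36, below background, without it, SD). In GFP-high cells, where Reln was higher with the gate, 7 of 9 interneuron genes rose, while 5 of 9 radial glia and 2 of 3 intermediate progenitor genes fell. Of all genes 10.8% rose and 8.13% fell there. The part of these lists in the gate differences was not tested. The neuron sum was 20367 to 22219 in GFP-low Prominin-selected cells and 35189 to 58689 in GFP-low ungated cells. Of 9 radial glia genes, all 9 rose in GFP-high ungated cells, where 5.95% of all genes rose. Meningeal and vessel genes, 12 in all, had no group mean above the background level (summed intensity 116 to 466 over all arrays). Of 6 microglia and blood genes at most 1 had an unadjusted p under 0.05 in any of the 5 contrasts besides the gated GFP contrast. None was past the adjusted threshold there.

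**Figure D4:**
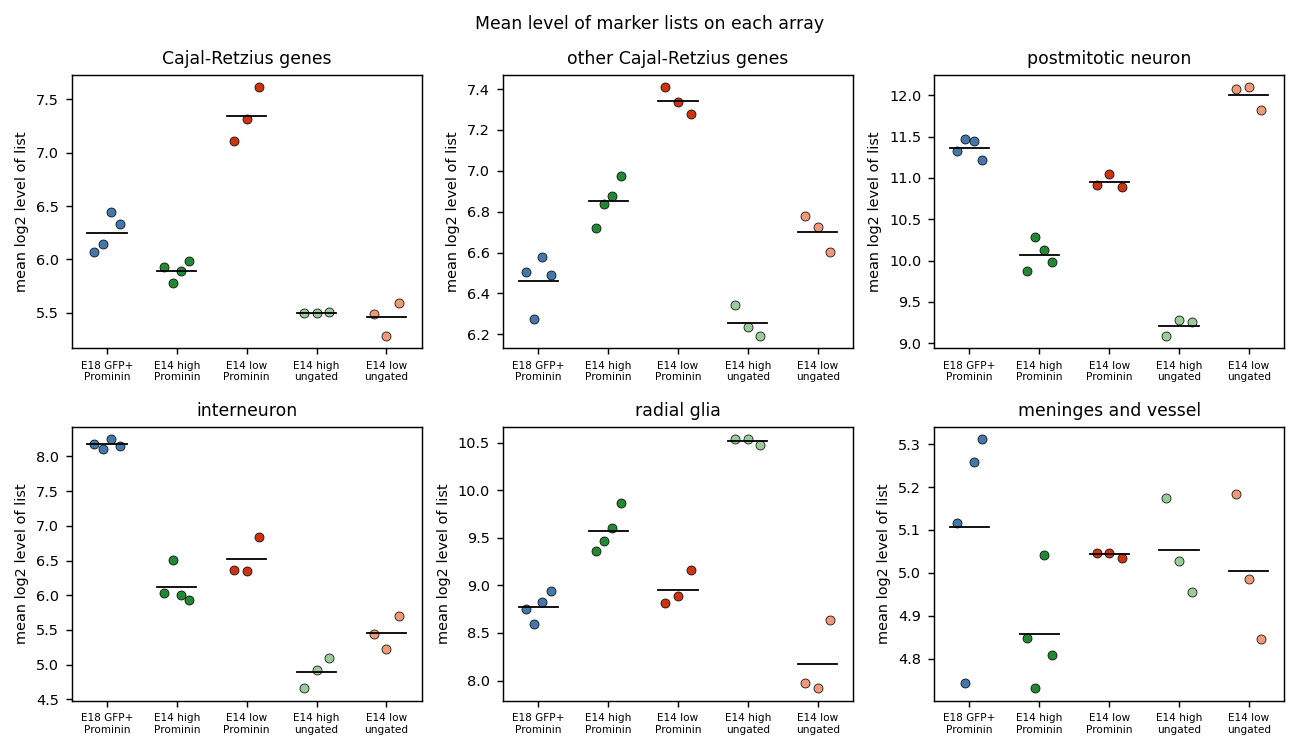
Mean log2 level of 6 marker lists on each array, by group, with bars at the group mean and each panel on its own scale. The Cajal-Retzius genes peak in E14 GFP-low Prominin-selected cells, the interneuron genes at E18, the postmitotic neuron genes in E14 GFP-low ungated cells and the radial glia genes in E14 GFP-high ungated cells.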

How the data were processed

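The deposited intensity values are linear, 1 per probe set and array for 45101 probe sets (64 of them controls, left out), and run from 0.0397 to 59926. The sources used here do not name the summarisation software or scaling. RNA was isolated with RNeasy columns and DNase, per the labels' protocols. Symbols came from GEO's platform table: 34945 probe sets had 1 symbol, 932 several and 9160 none. With R 4.3.3 and limma 3.58.1, log2(value + 16) was quantile-normalized across 17 arrays, since array medians differed by 0.603, and fitted with lmFit and eBayes (two-sided). P-values were adjusted by Benjamini-Hochberg over all 45037 probe sets. Contrasts within Prominin-selected cells used 11 arrays, the ungated contrast 6 and the gate contrasts 17. The procedure was tested on simulated data. Figures used Python 3.11.15 and matplotlib 3.10.9. The number of arrays limits the precision.

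The genes and lists were chosen with earlier results of these data known. Contrasts that hold arrays of the choice are therefore described, for the 9 genes and for all other lists, although they were planned as tests. Counts of listed genes in those contrasts use the threshold of the fit. Every probe set of the 9 genes is named. From other lists, up to 4 called genes per contrast by lowest p could be named, of which the text names a part, chosen after their values were seen. Of Gdf7, Ctgf and Pnlip no value was used. Of 3 intermediate progenitor genes 3 rose in GFP-high ungated cells, and of 4 subplate genes 1 rose, where 5.95% of all genes rose. Alternatives were pseudocounts of 1 and 64, values as deposited, leaving out the dimmest 40% of probe sets, 1 probe set per gene, a replicate block, other arrays in the fit, 1 labelling kit and each array left out.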

Additional observations from a re-analysis of the deposited data

Results flagged for a closer look

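Cxcr4 differed between contrasts: GFP-high minus GFP-low was −1.17 with the Prominin gate and 1.54 without it, and in each case the groups did not overlap. Ebf3 did so too, at −0.88 with the gate and 0.77 without it. The difference between the contrasts was not tested, because it contains the contrast the genes were chosen on.

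Single arrays stood apart in 2 of 34 groups of 4 arrays, where chance gives about 5%. Both were in E14 GFP-high Prominin-selected replicate 2. Its level of the Ebf2 probe set 1449101_at was 4.84, against 4.20 to 4.22 on the other 3 arrays, and of the Trp73 probe set 1427697_a_at 5.41, against 4.14 to 4.24. Both values lie below the background level of 6.15.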

How the results depend on the processing

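No value of the 9 genes past the threshold of the fit changed direction in the alternatives run. In the ungated GFP contrast, 2 of 9 genes passed: this was 1 with a pseudocount of 1, 1 with the replicate block, 4 with all 17 arrays in the fit, and 1 to 2 when an array was left out. Without the dimmest probe sets, and with 1 probe set per gene, Ebf3 passed as well. The other contrasts hold arrays the genes were chosen on, so their counts are descriptions and nothing is read from them. Between gated and ungated GFP-high cells, 1 gene was past the threshold: this was 2 with a pseudocount of 64, 2 without the dimmest probe sets, 2 with the replicate block, 3 with only the groups compared, and 1 when any array was left out. Here Ebf2 was past it in 2 of 15 alternatives, Trp73 in 2, and Cxcr4, lower with the gate, with the block alone. The counts of the other contrasts stayed within 1.5 times: 9 negative differences with the gate (9 to 9 without an array), 6 genes at E18 against E14 GFP-high cells (6 to 6), 7 against E14 GFP-low cells (6 to 7) and 8 between gated and ungated GFP-low cells (8 to 8). Same-numbered arrays correlated at −0.171 to 0.0467 after group means were removed, so arrays were not paired by number. With the replicate block, Reln at E18 against E14 GFP-high cells was 0.75 (adjusted p = 0.101), and Cxcr4 was 1.54 in the ungated GFP contrast (adjusted p = 0.0998) and 0.59 at E18 against E14 GFP-low cells (adjusted p = 0.146). The cause was not tested. Signal near background limits Lhx5 in every group, and the 6 arrays of the ungated contrast limit what it can detect.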
